A study of Mus musculus with 12 samples.

Results

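The genes described here are 10 genes that mark epithelial cells, namely the keratins Krt5, Krt7, Krt8, Krt14, Krt18 and Krt19, the adhesion molecules Epcam and Cdh1, the transcription factor Elf3 and the splicing factor Esrp1. They were chosen by symbol, and all 10 were found among the 41009 gene symbols of the deposited table. The samples were tumours of mCherry-labelled 4T1, a mouse mammary carcinoma line. They grew in BALB/c females aged 4 to 5 weeks, in the fat pad of the mammary gland. Treatment was intraperitoneal and began 7 days after the cells were injected. The Ctrl group received Ctrl-Fc (5 mg/kg), the OD group VHH-OD-Fc (3.5 mg/kg) and the PD-1 group VHH-PD-1-Fc (a dose of 2.6 mg/kg). The dual group received VHH-OD-PD-1-Fc (a dose of 4.3 mg/kg), which carries both arms. VHH stands for a nanobody, a camelid binding domain, joined here to the constant Fc portion of an antibody, and PD-1 restrains activated T cells. What OD abbreviates is not spelled out, but the series title speaks of nanobodies to endogenous digoxin-like substances. All groups carry the same tumour line and an Fc protein, and the doses differ between groups. Each group had 3 poly(A) RNA libraries. Whether they came from separate mice is not stated, and the spread that p-values measure may therefore be technical.

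Keratins are the intermediate filament proteins of epithelial cells, and a filament needs a type II keratin paired with a type I keratin. Krt8 (type II) and Krt18 (type I) form the usual pair of simple epithelia, including the luminal cells of the mammary gland, where Krt7 and Krt19 are also found. Krt5 (type II) and Krt14 (type I) form the pair of basal and myoepithelial cells. E-cadherin, the product of Cdh1, joins epithelial cells at adherens junctions, and Epcam is a second adhesion molecule of the epithelial surface. Elf3 is a transcription factor of the ETS family and Esrp1 directs epithelial patterns of splicing. In the programme called epithelial-mesenchymal transition (EMT), factors such as Snai1 and Zeb1 lower many of these genes.

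The values were deposited as FPKM, which are fragments per kilobase of transcript and 1e+06 fragments. Whole reads could be recovered from them with gene lengths of GENCODE M21, which gave an estimated 43.6 to 60.9 M counted reads per library (M stands for 1e+06). The limma test on log2(FPKM + 1) covered the 14306 genes that reached 1 FPKM in 3 or more libraries. Of the 10 genes, 9 passed this filter and Krt5 did not. Calls are two-sided with Benjamini-Hochberg adjustment across the whole tested table and a limit of 0.05, and differences below are on the log2(FPKM + 1) scale, which understates the change of low genes. The sum of FPKM was 327792 to 345596 in the Ctrl and OD libraries and 388142 to 401179 in the PD-1 and dual libraries. Batches are not labelled, and one that followed the arm against PD-1 cannot be told apart from it. The 3 dual libraries were unusually alike. Their pairs differed by 7.23 to 7.46 times counting noise (median chi-square over genes with at least 100 reads per pair), against 12.5 to 73.2 times in the other groups, and they were kept as 3 samples, as labelled, with results for them as 1 sample given where these differ. Whether a counted read is a fragment or 1 of its ends is not known, and the ratio to counting noise depends on it.

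The epithelial markers of the labelled carcinoma line were present, and Krt8 and Krt18 were the highest of the 10 in each library. Krt8 lay between 477 and 1170 FPKM and Krt18 between 615 and 2059 FPKM. Together they held 87.6% to 96.0% of the FPKM of all 51 keratin rows. Of these rows, 14 reached 1 FPKM in any library. Markers of normal luminal cells were uneven. Csn1s1, Wap, Lalba, Prlr and Pgr were under 1 FPKM in all 12 libraries, while the growth factor Areg was at 2.49 to 50.7 FPKM, the milk gene Csn3 at 1.32 to 13.1, Esr1 at 0.673 to 2.88 and Wnt4 at 0.621 to 10.6. Markers of skin keratinocytes summed to 1.52 to 5.24 FPKM over the 12 libraries, with Krt1, Krt2, Lor, Flg, Ivl, Krtdap, Dsg1a and Cdsn under 1 FPKM in all. The 10 genes together held 0.361% to 0.949% of the FPKM sum.

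By mean FPKM over the 12 libraries, the order was Krt18 (1331), Krt8 (814), Krt7 (122), Epcam (112), Krt19 (47.4), Cdh1 (33.8), Elf3 (8.80), Krt14 (6.01), Esrp1 (1.30) and Krt5 (0.331). FPKM is scaled per length, and reads came back whole with the union of a gene's exons as that length. This union is 7049 bases for Krt7, against 1958 for Krt8, 1437 for Krt18 and 2195 for Epcam. The order of genes, and the share of Krt8 and Krt18 among keratins, depend on it and are approximate. The ranges of Krt7 (52.6 to 198) and Epcam (14.3 to 191) overlapped, as did those of Krt19 (2.78 to 75.1) and Cdh1 (17.8 to 49.4). Krt8 and Krt18 overlapped in range across libraries, although Krt18 was above Krt8 in each of the 12. Elf3 and Krt14 changed places between groups, Krt14 having the higher mean in Ctrl (11.3 against 7.52 FPKM) and the OD group (10.0 against 8.58), and the lower in the PD-1 group (1.50 against 9.40) and the dual group (1.17 against 9.71). The most uneven of the 9 tested genes was Krt14, whose highest library was at 26.8 FPKM and whose lowest was at 0.0261.

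**Figure D1:**
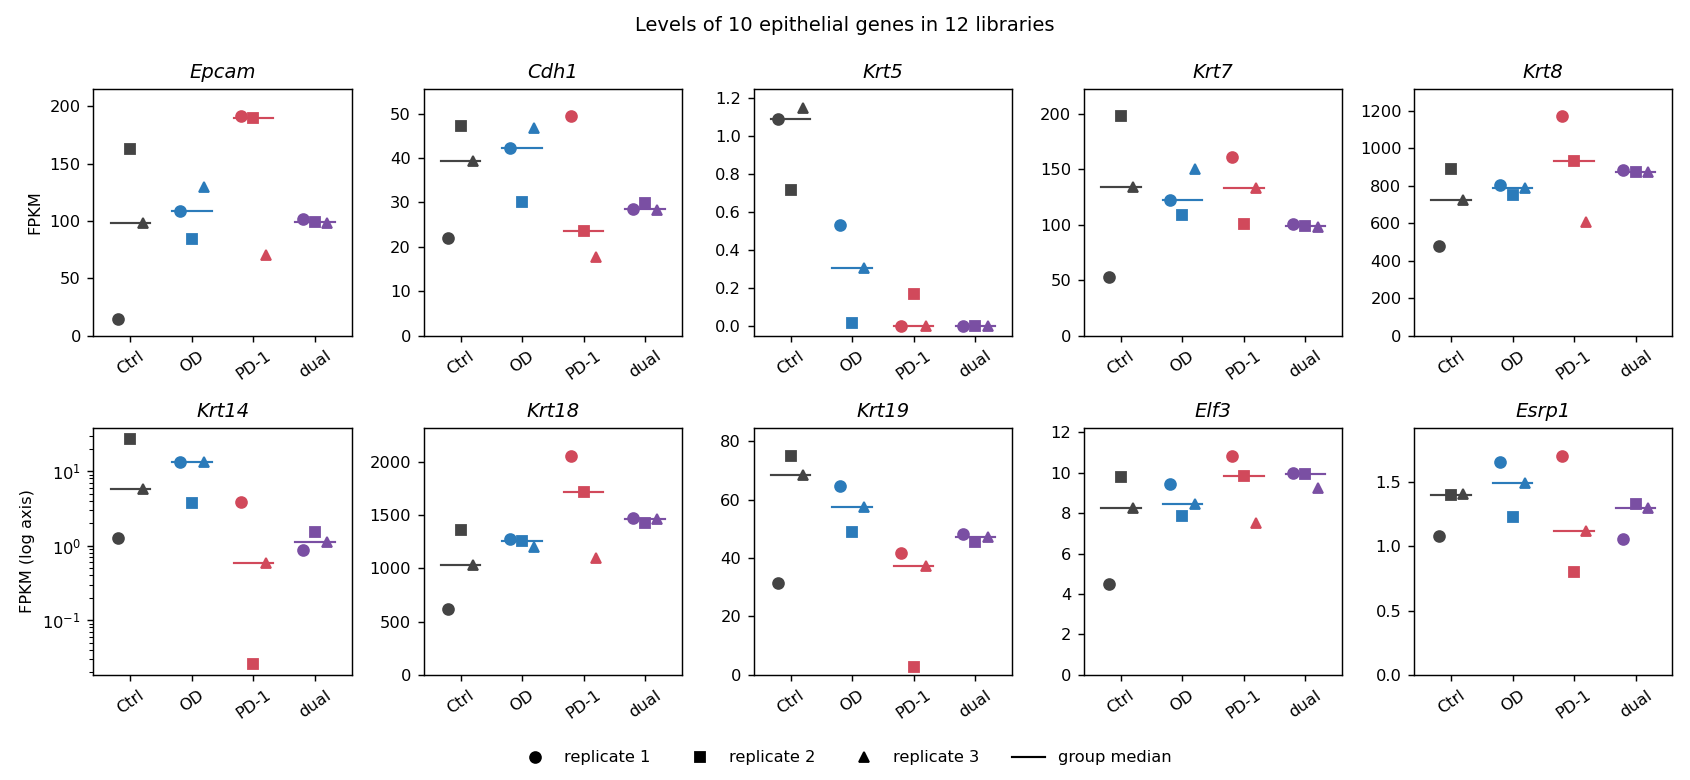
FPKM of each of the 10 genes (vertical axis, logarithmic for Krt14) in the 12 libraries, by group (OD, PD-1 and dual as above), with symbols for the replicate number and a line at the group median. Ctrl replicate 1 is the lowest Ctrl library in 9 of the 10 panels, Krt5 falls to 0 in the 3 dual libraries, and PD-1 replicate 2 stands alone at 2.78 FPKM for Krt19.

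The adhesion gene Epcam was at 14.3, 162 and 98.0 FPKM in Ctrl, at 109, 84.3 and 129 in the OD group, at 191, 190 and 70.5 in the PD-1 group, and at 101, 99.5 and 98.0 in the dual group (replicates 1 to 3 in each). A single Ctrl library was far below all others, and the ranges of all 4 groups overlapped. Cdh1 was at 22.0, 47.2 and 39.3 FPKM in Ctrl, at 42.2, 30.2 and 46.8 in the OD group, at 49.4, 23.6 and 17.8 in the PD-1 group, and at 28.6, 29.9 and 28.2 in the dual group. Here the dual libraries lay just below the OD libraries, while both overlapped Ctrl. Cdh1 was not the lowest where Epcam was, and their ratio ran from 0.124 in PD-1 replicate 2 to 1.54 in Ctrl replicate 1.

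In the within-group SD pooled over the groups on the log2 scale, the simple pair varied less than Krt7, Krt14 and Krt19. In the PD-1 group alone, Krt7 (SD 0.34) varied less than Krt8 (0.48) and Krt18 (0.46). In the dual group it varied less than Krt18 (0.018 against 0.025). Krt8 was at 477, 890 and 722 FPKM in Ctrl, at 802, 748 and 787 in the OD group, at 1170, 933 and 606 in the PD-1 group, and at 883, 873 and 873 in the dual group. Krt18 was at 615, 1363 and 1035 FPKM in Ctrl, at 1275, 1253 and 1199 in the OD group, at 2059, 1713 and 1100 in the PD-1 group, and at 1472, 1423 and 1459 in the dual group. Each Krt18 library of the dual group was above each Ctrl library, and the PD-1 range overlapped that of Ctrl. A pseudogene row, Krt8-ps, was at 0.825 to 2.96 FPKM, so reads that fit both copies could have been split. Krt8 and Krt18 varied together over the 12 libraries (Pearson's r = 0.96, and 0.98 after the group means were taken off). These values describe 12 libraries that share groups and scaling.

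The start regions of Krt8, Krt18 and Epcam are shown next, because Krt8 and Krt18 stand head to head on mouse chromosome 15 and varied together, while Epcam varied far more (13.4 times between its highest and lowest library, against 2.45 times for Krt8 and 3.35 times for Krt18). The range of Epcam rested on Ctrl replicate 1, and it was 70.5 to 191 FPKM without that library. RefSeq sequences of build GRCm38.p6 were matched for 7 of the 10 (Epcam, Krt5, Krt7, Krt8, Krt14, Krt18 and Elf3). Each window runs from 250 bases before to 50 bases after a start site. The windows are chr17:87635729-87636028 on the plus strand for Epcam, chr15:102004293-102004592 on the minus strand for Krt8 and chr15:102027966-102028265 on the plus strand for Krt18. The Krt8 and Krt18 windows are 23373 bases apart. Capitals mark the E-box CAGGTG, or CACCTG where it is read on the opposite strand, a motif that Snai1 and Zeb1 are known to bind.
Epcam: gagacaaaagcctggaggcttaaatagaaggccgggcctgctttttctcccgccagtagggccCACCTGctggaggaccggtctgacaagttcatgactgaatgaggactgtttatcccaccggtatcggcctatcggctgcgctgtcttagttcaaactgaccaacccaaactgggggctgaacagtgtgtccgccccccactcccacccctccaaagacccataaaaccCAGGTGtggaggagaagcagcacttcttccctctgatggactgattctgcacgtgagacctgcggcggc
Krt8: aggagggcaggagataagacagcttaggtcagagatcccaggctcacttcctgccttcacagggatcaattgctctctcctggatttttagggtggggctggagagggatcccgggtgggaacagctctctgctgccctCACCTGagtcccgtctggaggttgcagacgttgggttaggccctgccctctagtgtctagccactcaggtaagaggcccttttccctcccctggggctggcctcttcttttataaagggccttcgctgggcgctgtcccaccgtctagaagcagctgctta
Krt18: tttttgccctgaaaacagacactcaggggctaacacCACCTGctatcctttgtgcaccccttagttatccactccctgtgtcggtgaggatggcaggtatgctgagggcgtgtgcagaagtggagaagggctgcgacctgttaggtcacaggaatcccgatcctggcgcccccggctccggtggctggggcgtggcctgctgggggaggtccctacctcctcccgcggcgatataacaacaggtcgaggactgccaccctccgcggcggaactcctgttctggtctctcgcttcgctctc
The motif was found on either strand in 6 of the 7 windows, 2 times in Epcam and 1 time each in Krt5, Krt7, Krt8, Krt18 and Elf3. The window without it, that of Krt14, may belong to an alternative start site, so the count carries that doubt. Of 32851 promoter windows of the same length, 20.2% held it. The palindrome AACCGGTT, a site of the epithelial Grainyhead factors, was in 0 of the 7 and in 0.146% of all windows. A match describes letters in a window, and these data do not measure binding.

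Krt7, the other simple type II keratin, was at 52.6, 198 and 134 FPKM in Ctrl, at 122, 109 and 150 in the OD group, at 161, 101 and 133 in the PD-1 group, and at 100.5, 98.7 and 98.1 in the dual group. The last group lay below both single-arm groups and within the Ctrl range. Krt19, a type I keratin, was at 31.5, 75.1 and 68.3 FPKM in Ctrl, at 64.8, 48.8 and 57.5 in the OD group, at 41.6, 2.78 and 37.3 in the PD-1 group, and at 48.3, 45.5 and 47.3 in the dual group. All 3 PD-1 libraries were below all OD and dual libraries, and 1 of them was 13.4 to 14.9 times below its 2 fellows. That library rested on 225 Krt19 reads, against 3525 and 3572 in the others.

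The basal pair was low and uneven. Krt14 was at 1.27, 26.8 and 5.82 FPKM in Ctrl, at 13.1, 3.73 and 13.3 in the OD group, at 3.87, 0.0261 and 0.594 in the PD-1 group, and at 0.867, 1.51 and 1.11 in the dual group. In PD-1 replicate 2 this was 2 reads, against 2404 in Ctrl replicate 2. Krt5 was at 1.09, 0.715 and 1.15 FPKM in Ctrl, at 0.532, 0.0176 and 0.306 in the OD group, at 0, 0.167 and 0 in the PD-1 group, and listed at 0 in all 3 dual libraries. Its reads were 121, 80 and 127 in Ctrl, 55, 2 and 41 in the OD group and 0, 16 and 0 in the PD-1 group. Each Ctrl library was thus above every treated library for Krt5. A library with 0 reads allows up to 3 reads by counting error alone.

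Elf3 was at 4.49, 9.81 and 8.26 FPKM in Ctrl, at 9.44, 7.85 and 8.46 in the OD group, at 10.8, 9.84 and 7.51 in the PD-1 group, and at 9.98, 9.93 and 9.22 in the dual group. It followed Epcam closely (r = 0.94 over 12 libraries, and 0.97 after the group means were taken off). Esrp1 was at 1.08, 1.39 and 1.40 FPKM in Ctrl, at 1.66, 1.23 and 1.49 in the OD group, at 1.70, 0.800 and 1.12 in the PD-1 group, and at 1.06, 1.33 and 1.30 in the dual group. Neither gene had a pair of groups whose libraries did not overlap. Esrp1 varied more with Cdh1 (r = 0.81) than with Epcam (r = 0.26). Krt19 hardly varied with Krt18 (r = -0.21) and more with Esrp1 (r = 0.74).

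Spread within groups was large for most of these genes. The pooled within-group SD on the log2 scale was 1.17 for Krt14, 1.05 for Krt19 and 1.001 for Epcam, and each was above that of at least 99.1% of the genes tested. It was 0.53 for Krt7, 0.49 for Cdh1, 0.37 for Krt18, 0.33 for Krt8, 0.29 for Elf3 and 0.18 for Esrp1, against a median of 0.18 over all genes tested. Ctrl replicate 1 was the lowest of the 12 libraries for Epcam, Krt7, Krt8, Krt18 and Elf3, and the lowest Ctrl library for all of the 10 except Krt5. The other Ctrl libraries were 6.85 to 11.4 times higher for Epcam, 4.57 to 21.1 times for Krt14, 2.56 to 3.76 times for Krt7, 1.68 to 2.21 times for Krt18 and 1.29 to 1.30 times for Esrp1. The size of the gap thus differed from gene to gene. That library was also the highest Ctrl library for leukocyte markers (mean log2 value 5.88, against 5.18 and 5.29) and macrophage markers (6.72, against 5.83 and 5.77). PD-1 replicate 2 was low in Krt19 and Krt14 but not in Epcam or Krt18. It was also the lowest of the 12 libraries for Esrp1 (0.800 FPKM) and the lowest PD-1 library for Krt7 (101). Its Cdh1, Krt8 and Elf3 values lay between those of its fellows. Its estimated depth was the lowest of the 12 (43.6 M reads). It had 25553 genes above 0 FPKM, against 30257 and 30973 in its fellows and 25258 to 26203 in Ctrl. Its quality weight in limma was also the lowest of the 12 (0.226, against 0.374 and 0.279 in its fellows). This library had the highest macrophage value of the 12 libraries (7.02). The part of these markers in the levels was not tested, and in bulk tumours fewer cells of a type and less RNA per cell cannot be told apart.

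**Figure D2:**
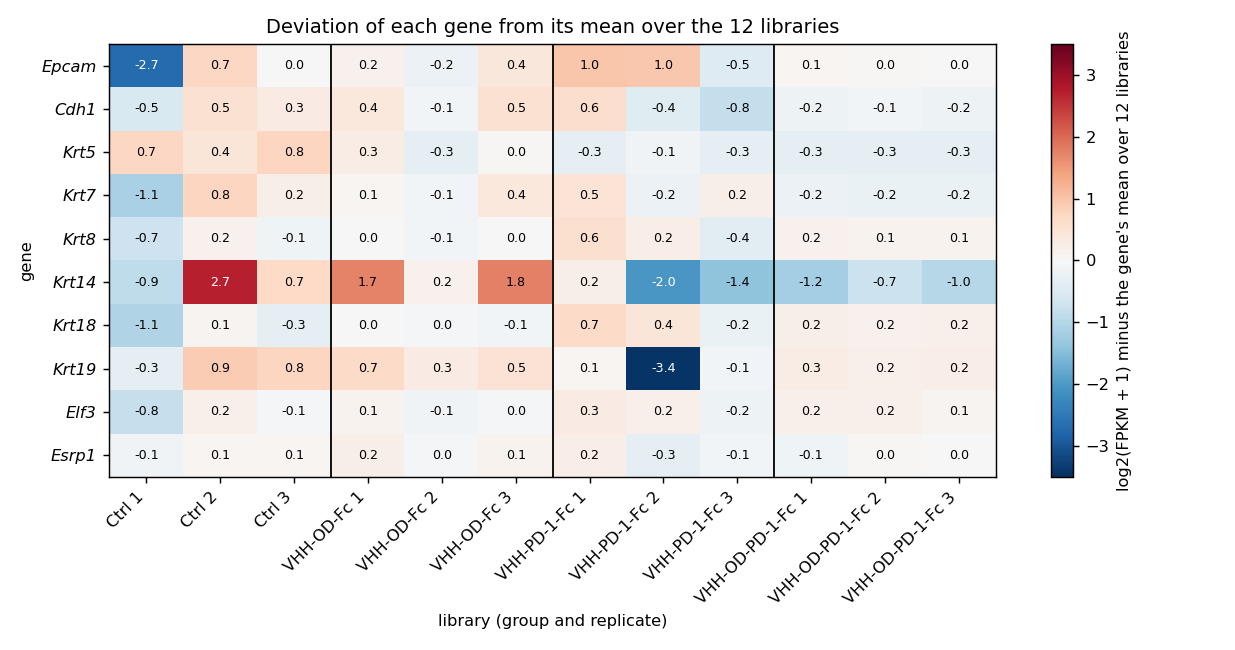
Deviation of log2(FPKM + 1) from each gene's mean over the 12 libraries (colour and printed value, log2 scale), with genes in rows and libraries in columns, and black lines between groups. Ctrl replicate 1 is blue in all rows but Krt5, PD-1 replicate 2 is blue for Krt14 and Krt19 beside red for Epcam and Krt18, and the 3 dual columns are nearly the same.

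The OD group was compared with Ctrl to see what the OD arm did alone. None of the 9 tested genes was called by limma, as 0.00% of all genes tested were. At an unadjusted p under 0.05 there were 0 of the 9 and 449 genes in all, and none of the 9 had groups without overlap, beside 10.2% of all genes tested. All 9 differences were positive, with Epcam at 0.77 (SE 0.70, 95% interval -0.77 to 2.31), Krt18 at 0.38 (SE 0.27) and the other 7 between 0.05 and 0.38. The adjusted p was 1 for each (limma). The sign rested on Ctrl replicate 1, and without it 2 of the 9 were positive and 7 negative, with a range of -0.48 to 0.06. The median over the 9 was 0.21, beside -0.02 over all genes tested. Krt5, outside the filter, was lower in each OD library than in each Ctrl library. In a limma fit with no filter (41009 rows) it differed by -0.64 (SE 0.15, adjusted p = 1).

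The PD-1 group was compared with Ctrl to see what the PD-1 arm did alone. Krt18 rose by 0.72 (SE 0.27, limma adjusted p = 0.0464), from a mean of 1004 ± 375 to 1624 ± 486 FPKM (SD, n = 3 each), with overlapping libraries. This was 1 of 9 genes called higher and 0 of 9 called lower, while 46.9% of all genes tested were called, 14.6% higher and 32.3% lower. A single call among 9 is below that share. None of the 9 had groups without overlap, where 49.1% of all genes did. The split of calls changed with scaling, from 2092 higher and 4615 lower to 3145 and 2879 with median-of-ratios scaling, which moved the median over all genes from -0.19 to -0.01, and to 1346 and 6800 with TPM, which moved it to -0.43. Krt14 had a difference of -1.92 (SE 0.82, adjusted p = 0.0744), and Krt19 of -1.60 (SE 0.73, adjusted p = 0.0928). Epcam was at 1.13 (SE 0.70, adjusted p = 0.201), and the other 5 lay between -0.31 and 0.37. The median over the 9 was 0.20, beside -0.19 over all genes tested. In the fit with no filter, Krt5 fell by 0.91 (SE 0.15, limma adjusted p = 0.00316), and 10.1% of all rows were called lower there.

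The call of Krt18 was held in 6 of 25 alternatives, and its adjusted p ran from 0.0117 to 0.750. It was lost when any library was left out except Ctrl replicate 2 or PD-1 replicate 3, and the difference was 0.40 without Ctrl replicate 1, 0.34 without that library, OD replicate 2 and PD-1 replicate 2, and 0.10 after quantile normalization. Gene length moved with this comparison. The median difference was 0.37 for the tenth of genes with the shortest transcripts (up to 660 bases) and -0.36 for the tenth with the longest (from 9042 bases). Krt18 has 1437 exonic bases, and with trends on length and GC content removed its difference was 0.58 (adjusted p = 0.0998). The trend with length was shared by the other comparisons of a group with the PD-1 arm and a group without it. Spearman's correlation of length with the difference was -0.29 here, 0.01 in the OD group against Ctrl and -0.02 in the dual group against the PD-1 group. Fibroblast markers moved too, summing to 222 to 458 FPKM in the PD-1 group and 569 to 805 in Ctrl, with 7 of 8 called lower. Their part in the result was not tested.

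The dual group, which carries both arms, was compared with Ctrl. None of the 9 was called, against 42.2% of all genes tested, 15.1% higher and 27.1% lower (limma). At an unadjusted p under 0.05 there were 2 of the 9, beside 7327 of all 14306 genes tested. The 2 were Krt18 at 0.60 (SE 0.27, adjusted p = 0.0906) and Krt14 at -1.81 (SE 0.82, adjusted p = 0.0957). Krt18 was the only one of the 9 whose libraries did not overlap between these groups, where 64.4% of all genes did not, 23.0% being higher. The other 7 genes lay between -0.25 and 0.68. With library quality weights 5 of the 9 were called, 2 higher and 3 lower. That setting called 9901 of all 14306 genes tested, 3675 higher and 6226 lower. Krt5 fell by 0.98 in the fit with no filter (SE 0.15, limma adjusted p = 0.00230), where 9.10% of all rows were called lower. With median-of-ratios scaling the calls over all genes were 3006 higher and 2593 lower, against 2158 and 3878 without it. Gene length moved with this comparison too. The median difference was 0.43 for the shortest transcripts and -0.31 for the longest, with the same limits of length as above.

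Against the PD-1 group, the construct with both arms showed no call among the 9, where 0.839% of all genes tested were called (limma). Krt19 was higher in each dual library, with a difference of 1.39 (SE 0.73, adjusted p = 0.399). Without PD-1 replicate 2 it was 0.25. Krt7 was lower in each, at -0.38 (SE 0.37, adjusted p = 0.689). These 2 of 9 compare with 21.0% of all genes without overlap, 13.8% higher and 7.25% lower. The other 7 lay between -0.46 and 0.11.

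Against the OD group, the construct with both arms again showed no call among the 9, beside 39.9% of all genes tested, 15.4% higher and 24.5% lower (limma). Krt14 came nearest, at -2.20 (SE 0.82, adjusted p = 0.0527), and each of its dual libraries was below each OD library. It was called in 9 of 25 alternatives. Median-of-ratios scaling gave 2888 genes higher and 2537 lower over all genes, against 2209 and 3503 without it. Here too the difference moved with gene length, with a median of 0.45 for the shortest transcripts and -0.31 for the longest. In all, 6 of 9 genes had no overlap between these groups, near the 65.7% of all genes, 25.3% higher and 40.4% lower. Cdh1 (-0.42, SE 0.35), Krt7, Krt14 and Krt19 were lower, and Krt8 and Krt18 were higher. Fibroblast markers summed to 545 to 549 FPKM in the dual group and 679 to 1098 in the OD group, with 7 of 8 called lower, and adipocyte markers to 23.5 to 27.4 and 85.2 to 316, with 6 of 6 called lower. Their part was not tested.

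The PD-1 group differed from the OD group in Krt14, which fell by 2.30 (SE 0.82, limma adjusted p = 0.0419), from 10.0 ± 5.47 to 1.50 ± 2.08 FPKM (SD, n = 3 each). The libraries overlapped, with 3.87 FPKM in PD-1 replicate 1 and 3.73 in OD replicate 2. This was 0 of 9 genes called higher and 1 of 9 called lower, beside 14.2% and 28.4% of all genes tested, or 42.6% in either direction. Krt19 was lower in each PD-1 library, at -1.65 (SE 0.73, adjusted p = 0.0891), and -0.52 without replicate 2. No other of the 9 lacked overlap, beside 47.5% of all genes, 31.6% being lower. The other 7 lay between -0.49 and 0.37. The call of Krt14 was held in 10 of 25 alternatives, with adjusted p from 0.0153 to 0.137. It was lost without Ctrl replicate 3, OD replicate 1 or 3, PD-1 replicate 2 or 3, or any dual library, and the difference was -4.32 with voom on whole reads (adjusted p = 0.0619) and -3.64 with a pseudocount of 0.1. Over all genes, median-of-ratios scaling gave 2969 higher and 2748 lower, against 2025 and 4070 without it. The trend with gene length was present as well, with a median difference of 0.37 for the shortest transcripts and -0.36 for the longest. Other markers of myoepithelial cells stand in the same list as Krt5 and Krt14, and this list summed to 87.6 to 133 FPKM in the OD group and 42.8 to 75.3 in the PD-1 group, with 3 of 7 tested genes called lower, Krt14 among them. Its members Trp63 and Oxtr were under 1 FPKM in all libraries. Fibroblast markers were lower in 8 of 8 tested genes (222 to 458 against 679 to 1098 FPKM in sum), adipocyte markers in 6 of 6 (3.14 to 51.2 against 85.2 to 316) and endothelial markers in 4 of 6 (22.8 to 30.9 against 40.8 to 56.5). The part of such cells was not tested.

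**Figure D3:**
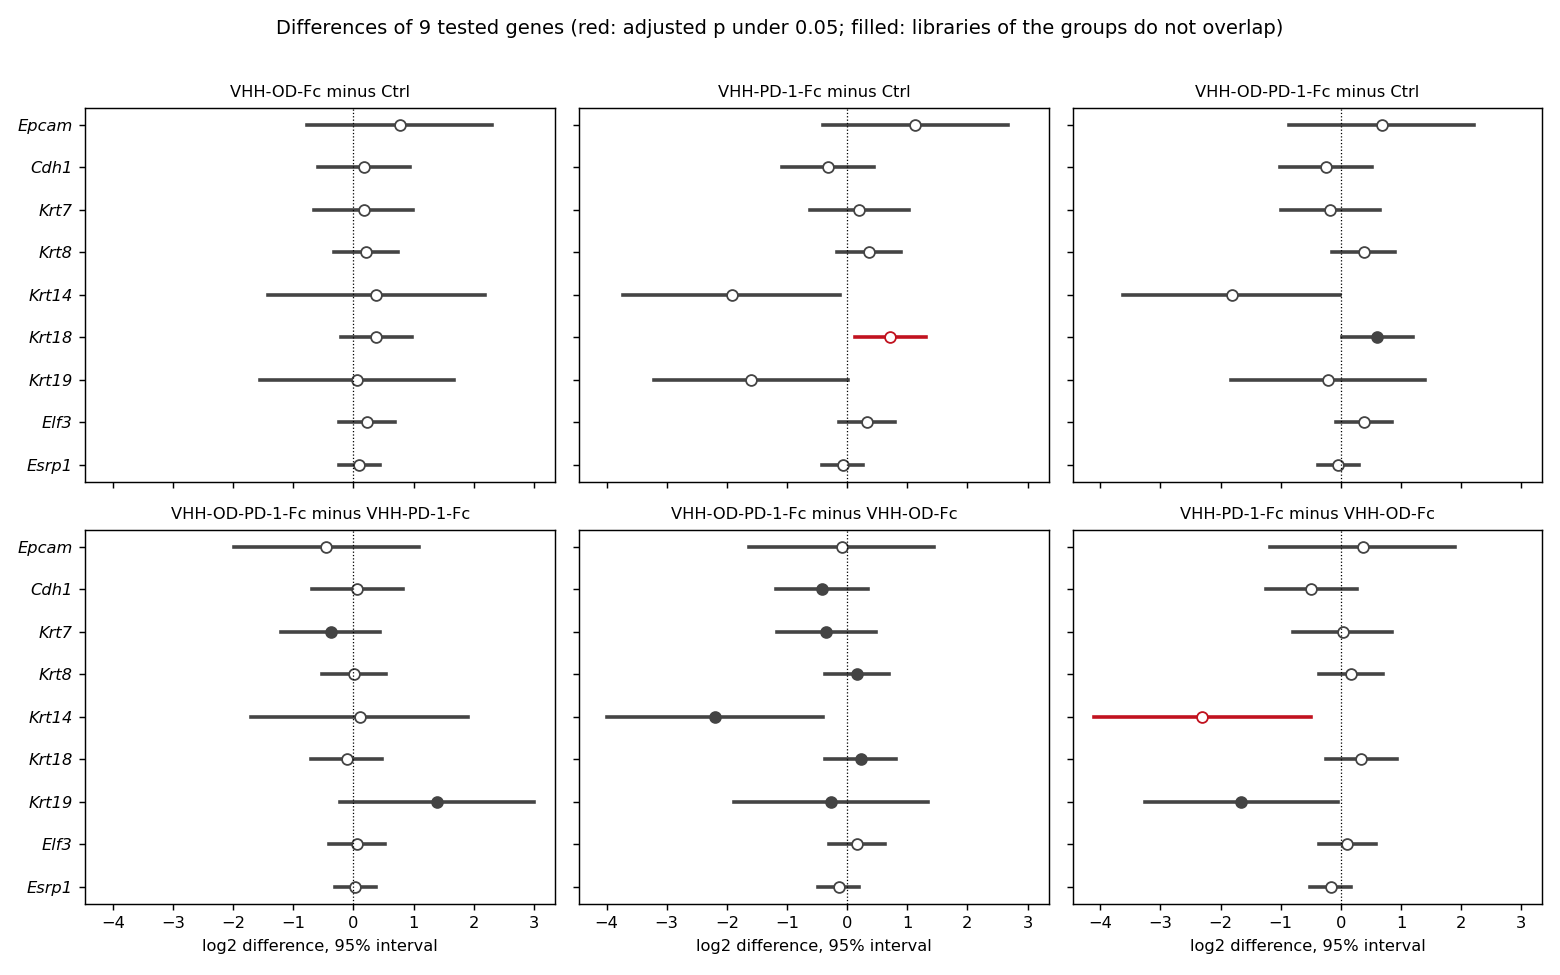
Difference of the group means of log2(FPKM + 1) for the 9 tested genes (dots) with 95% intervals from limma (bars), in 6 comparisons of 3 against 3 libraries. The 2 called genes are red, Krt18 in the PD-1 group against Ctrl and Krt14 in the PD-1 group against the OD group, and filled dots mark groups whose libraries do not overlap.

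The difference from additivity asks whether the OD arm changed expression differently beside the PD-1 arm than alone. It is (the dual group minus the PD-1 group) minus (the OD group minus Ctrl), and the unequal doses make it no strict factorial contrast. None of the 9 was called, beside 0.112% of all genes tested. An unadjusted p under 0.05 was found for 0 of the 9 and for 1709 genes in all (limma). Epcam was at -1.22 (95% interval -3.40 to 0.95) and Krt19 at 1.33 (-0.94 to 3.61). The other 7 lay between -0.55 and -0.07.

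Ratios of 2 genes within a library depend little on its scaling, and 8 such ratios were compared over the 4 groups with an exact permutation F test on log2((FPKM + 1)/(FPKM + 1)), while the ratios printed are of FPKM. Krt8/Krt18, the simple pair, was at 0.775, 0.653 and 0.698 in Ctrl, at 0.629, 0.597 and 0.656 in the OD group, at 0.568, 0.545 and 0.551 in the PD-1 group, and at 0.600, 0.613 and 0.599 in the dual group. The 3 PD-1 libraries were below the other 9, and Ctrl overlapped only the OD group. The groups differed (exact permutation p = 0.000519, adjusted p = 0.00416). With the dual libraries counted as 1 sample the adjusted p of this exact test was 0.0743, the highest of its alternatives, whose lowest was 0.00104. With trends on length and GC content removed it was 0.00773.

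Krt19/Krt18 was at 0.0511, 0.0551 and 0.0660 in Ctrl, at 0.0508, 0.0390 and 0.0480 in the OD group, at 0.0202, 0.00162 and 0.0339 in the PD-1 group, and at 0.0328, 0.0320 and 0.0324 in the dual group. All 6 libraries with the PD-1 arm were below all 6 without it. The groups differed (exact permutation p = 0.00305, adjusted p = 0.0122). The adjusted p of this exact test ran from 0.000519 to 0.451 over the alternatives, the last with the dual libraries as 1 sample. Without any 1 library of the OD group or the dual group, or without Ctrl replicate 1, 2 or 3, it was between 0.111 and 0.167. Cdh1/Epcam did not pass (exact permutation adjusted p = 0.120), but passed without Ctrl replicate 2 (0.000519), with a range up to 0.587 over the alternatives. Also above the threshold in this exact test were Krt5/Krt14 (0.479), Krt7/Krt8 (0.520), and Krt8/Epcam, Elf3/Epcam and Esrp1/Cdh1 (0.720 each).

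**Figure D4:**
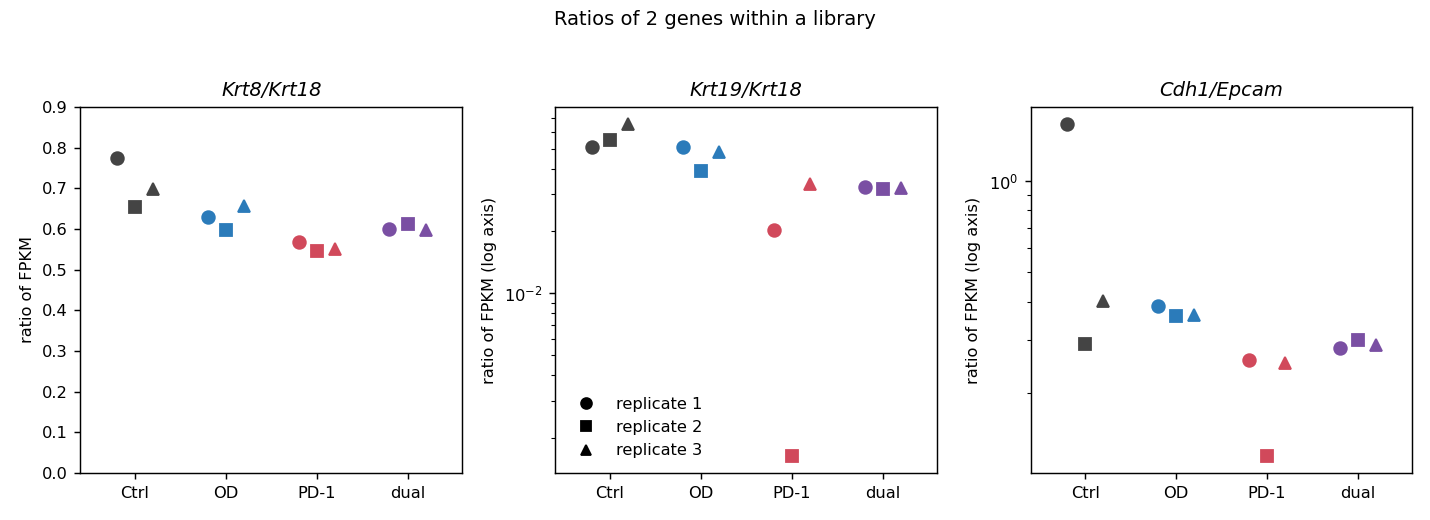
Ratio of FPKM of Krt8 to Krt18 (linear axis), Krt19 to Krt18 and Cdh1 to Epcam (logarithmic axes) in each of the 12 libraries, by group and replicate number. Krt8/Krt18 is lowest in the 3 PD-1 libraries (0.545 to 0.568), and Krt19/Krt18 is lower in the 6 libraries with the PD-1 arm than in the 6 without it.

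Other epithelial genes were described from lists of known function. Of 21 tested genes of adherens junctions and epithelial adhesion, 1 rose and 5 fell in the PD-1 group against Ctrl, where 14.6% of all genes tested rose and 32.3% fell. The falls are thus no more frequent than over all genes. Ctnnd1, which binds and steadies E-cadherin, rose by 0.98 (SE 0.16, adjusted p = 0.00092). Nectin1, an adhesion molecule of the same junctions, fell by 0.47 (SE 0.11), and Lsr, of tricellular junctions, fell by 0.94 (SE 0.25). With both arms, 1 rose and 6 fell against Ctrl, beside 15.1% and 27.1% of all genes. Ctnnd1 rose by 1.10 (SE 0.16), and Ctnnb1 (beta-catenin), which links cadherin to the cytoskeleton, fell by 1.10 (SE 0.18). Nectin1 fell by 0.48 (SE 0.11). The list's count of falls ran from 2 to 11 and from 1 to 13 over the alternatives in these comparisons.

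Of 9 tested desmosome genes, 0 were called in the PD-1 group against Ctrl and 1 fell in the dual group against Ctrl, namely Ppl (-0.58, SE 0.17), a plakin of the cell envelope. Over the alternatives 0 to 1 rose and 0 to 1 fell in the former, and 0 to 6 fell in the latter. Of all genes tested, 14.6% rose and 32.3% fell in the former, and 15.1% rose and 27.1% fell in the latter. Dsp, the plakin that ties keratins to desmosomes, was at -0.20 (SE 0.38) and -0.27 (SE 0.38). Of 11 tested epithelial proteases, their inhibitors and trafficking genes, 5 rose and 0 fell in the PD-1 group against Ctrl, beside the 14.6% and 32.3% of all genes, and 2 to 5 rose over the alternatives. They included the protease inhibitors Spint2 (0.98, SE 0.16) and Spint1 (0.49, SE 0.15), the protease Prss8 (0.89, SE 0.26) and Wfdc2 (1.33, SE 0.23). With both arms, 2 rose against Ctrl, Spint2 (0.74, SE 0.16) and Wfdc2 (1.06, SE 0.23), where 15.1% of all genes rose. Over the alternatives 0 to 5 of this list rose and 0 to 4 fell. Of 10 tested epithelial transcription and splicing factors, 0 were called in the former comparison and 1 rose in the latter, Klf5 (0.95, SE 0.20), with 0 to 4 rises and 0 to 2 falls over the alternatives in each. Grhl2, an activator of Cdh1, was at 0.15 (SE 0.16) and 0.02 (SE 0.16), and Esrp2, the partner of Esrp1, at -0.20 (SE 0.13) and -0.14 (SE 0.13).

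Of 7 tested EMT transcription factors, 1 rose and 4 fell in the PD-1 group against Ctrl, where 32.3% of all genes fell. Snai1 fell by 0.40 (SE 0.09), Prrx1 fell by 0.90 (SE 0.21), Zeb2 fell by 0.81 (SE 0.20) and Zeb1 fell by 0.45 (SE 0.16), while Tcf4 rose by 1.21 (SE 0.28). Against Ctrl, 1 rose in the dual group, Twist2 (1.11, SE 0.30), and 2 fell, Snai1 (-0.40, SE 0.09) and Zeb2 (-0.59, SE 0.20). Of all genes tested, 15.1% rose and 27.1% fell there. Zeb1 was at -0.37 (SE 0.16) there. The alternatives gave 1 to 5 falls in the former and 0 to 5 in the latter, where median-of-ratios scaling turned the counts to 2 rises and 0 falls. Snai2 did not pass the filter and was at 0.767 to 0.884 FPKM in Ctrl and 0.152 to 0.397 in the PD-1 group. Of 8 tested mesenchymal genes, 0 rose and 4 fell in the PD-1 group against Ctrl, again beside 32.3% of all genes and with 2 to 5 falls over the alternatives. They were Mmp2 (-1.80, SE 0.26) and Tnc (-1.69, SE 0.31), a metalloproteinase and a matrix protein that fibroblasts also make, the integrin Itga5 (-0.53, SE 0.14) and the cadherin Cdh11 (-0.78, SE 0.28). Of the same 8, 2 rose and 2 fell in the dual group against Ctrl, again beside 15.1% and 27.1% of all genes. The alternatives gave this list 0 to 2 rises and 1 to 5 falls. Mmp2 fell by 2.28 (SE 0.26) and Fn1, or fibronectin, fell by 0.73 (SE 0.17), while S100a4 rose by 0.72 (SE 0.19). Vim, the intermediate filament of mesenchymal cells, rose by 0.47 there (SE 0.12) and by 0.67 against the PD-1 group (SE 0.12), and was at -0.20 (SE 0.12) in the PD-1 group against Ctrl. Of 8 fibroblast markers, 7 were called lower in the PD-1 group against Ctrl, beside 32.3% of all genes. In the dual group 2 of 8 were called lower against Ctrl, near the 27.1% of all genes. Between these treated groups 0 of 8 were called, and the part of the fibroblast markers was not tested.

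The same lists were also counted against the OD group. Of all genes tested, 15.4% rose and 24.5% fell in the dual group. There, 1 rose and 6 fell of the 21 in the adhesion list, and 2 rose of the 11 in the protease list. The EMT factors gave 2 falls of 7, and the mesenchymal genes 2 rises and 4 falls of 8. Of the 9 in the desmosome list 1 fell, and of the 10 transcription and splicing factors 1 rose and 1 fell. In the PD-1 group these were 1 rise and 5 falls, 2 rises, 1 rise and 4 falls, 5 falls, no call, and 1 fall, in the same order. Of all genes tested, 14.2% rose and 28.4% fell there. Over the alternatives, falls in the adhesion list ran from 1 to 13 in both comparisons with the OD group. Falls of EMT factors ran from 0 to 5 in the dual group and from 1 to 5 in the PD-1 group. In the same order, falls of mesenchymal genes ran from 2 to 5 and from 2 to 6, and falls of desmosome genes from 0 to 6 and from 0 to 3. Rises in the protease list ran from 0 to 3 and from 1 to 4. The counts against both references were not tested against each other. Comparisons with the OD group share libraries with those against Ctrl. The OD group against Ctrl and the difference from additivity had 0 calls in each of these lists (limma), and the dual group against the PD-1 group had 1, Vim. The mesenchymal list, which holds Vim, had 0 to 2 rises over the alternatives between the dual group and the PD-1 group.

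The genes whose level was most like the mean of the 9 were sought by Pearson's r over the 12 libraries. They were Sdc1 (r = 0.92), Acsbg1, Dsp, Lamb3, Lama3, Itpr3, Emp1 and Spg7 (0.90). After the group means were taken off they were Lama3 (r = 0.97), Anxa1, Lamb3, Col4a2, Igsf9, Sdc1, Pkp2 and Itpr3 (0.94). Sdc1 encodes a cell surface proteoglycan, Lama3 and Lamb3 encode chains of laminin-332 of the epithelial basement membrane, and Dsp and Pkp2 are desmosome proteins. The r values describe these 12 libraries, in which 1 Ctrl library was low.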

How the data were processed

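The libraries held poly(A) RNA read from both ends at 150 bp, per the labels' protocols. FPKM per gene symbol was deposited by the authors. Tools listed in the submitters' processing notes are fastp 0.22.0 and HISAT2 2.2.1. The only build listed there is the human GRCh38, while the symbols are those of mouse. No counting tool, annotation or strand setting is named in the sources used here. The design text of the series names another tumour and was not used.

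Here, FPKM was multiplied by union exon length (GENCODE M21) and depth. Whole reads, to within 0.05, came out for 92.4% to 93.9% of low values, against 54.0% to 57.1% at 0.5 times that depth. Floors on reads cover counting error only, while the 95% intervals are those of limma and rest on the spread between libraries.

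Limma 3.58.1 (R 4.3.3, trend on the mean) was run over all 12 libraries with 4 group means, 8 residual and 3.03 prior degrees of freedom, and log2 differences carry its moderated SE. Ratios, log2((FPKM + 1)/(FPKM + 1)), were tested over all 15400 partitions into 4 groups of 3. The scripts were tested on simulated data. Alternatives varied pseudocount, filter, scaling, length and GC trends, weights, block, libraries and fit, with voom on whole reads, and the ratios without the trends, added after the data were seen. The genes, lists and tests were chosen with earlier results of these data known. Named genes were the 10 genes, up to 4 called genes of smallest p per list and comparison (those against Ctrl are printed), Vim, Zeb1, Snai2, Grhl2, Dsp and Esrp2, and the 8 most like the mean by each measure. Of the genes it names against Ctrl, 2 are not reported here.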

Additional observations from a re-analysis of the deposited data

How the results depend on the processing

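Of the 16 differences of single genes printed above for the 9 tested genes, 398 alternative values were computed, of which 335 kept direction and side of the threshold, 34 lost the call, 26 gained one and 3 changed sign. Most of the 335 were uncalled results that stayed uncalled. The 34 losses all fell on the called results. Krt18 in the PD-1 group against Ctrl held in 6 of 25 alternatives, and Krt14 in the PD-1 group against the OD group in 10 of 25. Epcam in the OD group against Ctrl was at -0.087 once 3 libraries (replicate 1 of Ctrl and replicate 2 of both single-arm groups) were left out together, and ran from -0.25 to 1.46 with each library left out in turn. Epcam in the PD-1 group against Ctrl was at -0.12 without these 3 libraries. The number of the 9 genes called in the PD-1 group against Ctrl was 1, and 0 with no filter, quantile normalization, length and GC trends removed, the dual libraries as 1 sample or a fit over both groups only. It was 2 without the 3 libraries and 0 to 3 with each library left out in turn. The 2 were Krt14 and Krt19, both lower, and the rise of Krt18 was not called there. Krt18 was also not called after rescaling to TPM, where Krt14 was called lower, or with quality weights, where Krt19 was. For the dual group against Ctrl the number called was 0, and 5 with quality weights. It was 3 without the 3 libraries, all lower, and 0 to 2 with each left out. For the dual group against the OD group it was 0, and 1 after rescaling to TPM or with quality weights, 4 in a fit over both groups only, 2 without the 3 libraries and 0 to 1 with each left out. In the PD-1 group against the OD group it was 1, and 0 with no filter, median of ratios, quantile normalization, the dual libraries as 1 sample, quality weights or voom, 2 without the 3 libraries and 0 to 3 with each left out. The other comparisons gave 0 under each alternative run. Over all 14306 genes, quality weights called 9901 in the dual group against Ctrl. For the dual group against the OD group, the fit over both groups only called 8024. The number of 8 ratios that differed was 2, and 0 with the dual libraries as 1 sample and 1 to 2 with each left out. The cause of these changes was not tested.

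Replicate numbers did not pair the samples. Deviations of same-numbered libraries correlated at -0.15 to 0.18 (18 pairs), and 3 of 12 libraries correlated best with their own number. With the replicate block the number of genes called was 0 in the PD-1 group against Ctrl and 0 in the PD-1 group against the OD group, and 2 ratios still passed. Over all genes, the calls in the OD group against Ctrl were 0, and 2 with no filter and 4 with quality weights. They were 6036 in the dual group against Ctrl and 5712 against the OD group, and 1329 and 1098 with its libraries as 1 sample. That setting also leaves fewer samples, and the cause of the drop was not tested. Between the dual group and the PD-1 group they were 120, and 3 to 538 over the alternatives. Depth limits Krt5 and Krt14, which rested on 0 to 2 reads in some libraries.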

Other observations

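Other keratins were few and low. Krt80 lay between 2.58 and 8.10 FPKM over the 12 libraries, Krt10 between 0.955 and 2.38, and Krt17, a keratin of basal and stressed epithelium, between 0.200 and 2.75. None of the 3 was called in any of the 7 comparisons (limma). Krt17 was highest in the Ctrl library that was also highest for Krt14.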
